A study of Mus musculus with 24 samples.

Results

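Intermediate filament genes were examined in engineered skeletal muscle that had been paced with light. The group held 10 genes of the 56941 in the tables, taken by name: the neurofilament subunits Nefl and Nefm, the muscle and mesenchymal filament genes Des, Vim, Nes, Synm, and Sync, the simple epithelial keratin Krt18, and the nuclear lamins Lmna and Lmnb1. Nefl was selected on its measured values, a lower level at 1 and 4 Hz than in control, so its differences between groups are described here and were given no test. All 24 tissues were made from C2C12, a mouse myoblast line, of genotype ChR2::tdTomato, whose channelrhodopsin lets blue light trigger contraction. All had been differentiated in medium with horse serum and IGF-1. They fell into 4 groups of 6: unstimulated control, and light at 1, 4, or 10 Hz for 30 min per day. All tissues came from 1 cell line that also twitches without light, so the control was not a resting muscle. Nothing in the labels says whether the 6 tissues of a group came from separate cultures of cells, so p-values measure the spread between tissues, which may be partly technical. RNA was taken from whole tissues, and fewer cells of a type and less RNA per cell cannot be told apart in it.

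Intermediate filaments are rope-like polymers that give cells mechanical strength. In a muscle fiber, desmin ties neighboring sarcomeres to each other, to the membrane, and to the nucleus. Vimentin and nestin are abundant in myoblasts and young myotubes, synemin and syncoilin join desmin networks, and lamins form the meshwork under the nuclear envelope. Neurofilament subunits are best known from axons, where light and medium chains assemble with a heavy chain.

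Total estimated counts were 4.19 to 7.65 M per library in control, 4.09 to 15.2 M at 1 Hz, 7.55 to 11.5 M at 4 Hz, and 5.41 to 12.1 M at 10 Hz. The labels call the cells myoblasts, and the RNA was that of differentiated muscle: 10 muscle fiber markers summed to 6980 to 8766 CPM (counts scaled to a common library size) in control and to 10497 to 14060, 11104 to 16362, and 7559 to 12237 CPM at 1, 4, and 10 Hz. A list of 19 small RNAs that carry no poly(A) tail, 16 of them in the tables, also differed between groups. It summed to 97.5 to 168 CPM in control, 14.6 to 70.0 CPM at 1 Hz, 18.1 to 50.8 CPM at 4 Hz, and 38.3 to 270.5 CPM at 10 Hz. The labels say that samples of low input were depleted of ribosomal RNA instead of selected for poly(A), without naming them, so preparation and stimulation cannot be told apart. With the log2 share of these small RNAs as a covariate, 1 gene of 13318 passed the test at 1 Hz and 316 at 4 Hz against control, and no call against control given below for a member was kept. At 1 Hz the log2 fold change of Vim was 0.25 with the covariate and 0.28 without, and that of Nes 0.22 and 0.26. That of Nefm went from −1.53 to −0.30, Synm from 0.55 to 0.15, Lmna from 0.42 to 0.19, and Des from 0.35 to 0.23. With the covariate the adjusted p of these 1 Hz values ran from 0.575 (Vim) to 0.899 (Nefm and Synm). Because the share differed between groups, these values do not separate preparation from stimulation for any member.

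In the GENCODE M39 annotation of GRCm39, Nefl (chr14:68321268-68326544, plus strand) and Nefm (chr14:68320039-68362305, minus strand) overlap. The last exon of 1 of the 6 annotated Nefm transcripts runs antisense across 1152 bases of the first exon of Nefl, which is 33.6% of Nefl's exon bases and 19.4% of Nefm's. The canonical transcripts lie 30187 bases apart and share none. The libraries were directional, but no source used here states whether strand was used in counting, so reads in those 1152 bases cannot be told apart for certain. Des (chr1:75320511-75345223) has 9 exons in its canonical transcript, as has Vim (chr2:13578738-13587639), and Lmna (chr3:88387454-88417299) has 12.

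Promoters are shown for the 2 most abundant members because Des rose at 1 and 4 Hz and Vim at 1 Hz (values below). RefSeq's table for GRCm38.p6 held promoters for 7 of the 10 members, not for Nefl, Nefm, and Lmnb1. The windows are the 250 bases before each start, both on the plus strand, 5′ to 3′, at chr1:75360042-75360291 for Des and chr2:13574061-13574310 for Vim in that build. Capitals mark matches on either strand to the E-box CANNTG, the site of myogenic factors such as MyoD, and to the TATA motif TATAAA.
Des: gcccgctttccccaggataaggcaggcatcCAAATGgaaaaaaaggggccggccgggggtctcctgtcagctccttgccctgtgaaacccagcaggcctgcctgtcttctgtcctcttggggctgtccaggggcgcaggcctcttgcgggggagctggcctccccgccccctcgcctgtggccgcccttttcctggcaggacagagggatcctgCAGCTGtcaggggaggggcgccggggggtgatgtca
Vim: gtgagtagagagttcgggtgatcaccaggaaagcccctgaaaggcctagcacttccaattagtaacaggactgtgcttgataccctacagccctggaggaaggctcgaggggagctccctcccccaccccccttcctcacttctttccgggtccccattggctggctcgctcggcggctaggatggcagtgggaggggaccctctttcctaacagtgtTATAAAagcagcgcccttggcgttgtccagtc
The Des window held 2 E-boxes, starting 220 and 36 bases before the start, the second of them CAGCTG, and no TATAAA. It also held GGGCGG, the motif of Sp1, 2 times (left in lower case). The Vim window held TATAAA 32 bases before the start and no E-box or GGGCGG. Neither held TGANTCA, the motif of AP-1. Among 32851 such windows 66.2% held an E-box, 13.0% CAGCTG, 12.4% TATAAA, 32.7% GGGCGG, and 6.75% TGANTCA, so these matches describe the letters only. GC content was 67.2% for Des and 58.4% for Vim, with a median of 52.4% over all windows.

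The neurofilament light chain Nefl had the largest ratio of highest to lowest library among the members that passed the filter on low counts. Control libraries had 37.0 to 131 CPM with a median of 49.8, and 1 Hz libraries had 9.85 to 26.3 CPM with a median of 13.3. At 4 Hz the values were 5.13 to 11.8 CPM with a median of 7.16, and at 10 Hz 17.6 to 87.2 CPM with a median of 32.0. No 1 or 4 Hz library reached the lowest control, as the choice of the gene would have it. At 10 Hz 3 libraries lay below every control, and the range overlapped that of the controls. All 10 Hz libraries lay above every 4 Hz library, as in 2.65% of genes, but Nefl was chosen for its low level at 4 Hz. The log2 fold change against control was −2.04 ± 0.37 (SE) at 1 Hz, −2.97 ± 0.39 at 4 Hz, and −0.44 ± 0.34 at 10 Hz, or 0.242, 0.127, and 0.737 times the control level. Control replicate 6 stood at 131 CPM and the next control at 53.1, and without replicate 6 these values were −1.66, −2.59, and −0.062. With the small RNA share as a covariate the log2 fold change was −0.61 at 1 Hz and −1.54 at 4 Hz.

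Nefm, the medium chain, followed the same order of groups and was tested, with the reserve that Nefl was chosen for this pattern and shares annotated bases with it. It had 28.1 to 110 CPM in control (median 33.3), 11.6 to 26.2 at 1 Hz (15.1), 8.75 to 15.3 at 4 Hz (12.3), and 21.0 to 81.4 at 10 Hz (31.9). Every 1 Hz and every 4 Hz library was below every control, which held in that direction for 5.81% and 7.91% of all genes tested. At 10 Hz 3 libraries were below every control, and the range overlapped that of the controls. Nefm fell at 1 Hz (log2 fold change −1.53 ± 0.35, adjusted p = 0.00150) and at 4 Hz (−1.97 ± 0.35, adjusted p = 0.000115). At 10 Hz it stood at −0.10 ± 0.33 from control (adjusted p = 0.908), a value whose sign turned to 0.33 without control replicate 6. Between frequencies, Nefm was higher at 10 Hz than at 1 Hz (1.43 ± 0.35, adjusted p = 0.00222) and than at 4 Hz (1.87 ± 0.35, adjusted p = 0.000659). Its 10 Hz libraries were all above its 4 Hz libraries, as in 2.65% of genes. From 1 to 4 Hz the change was −0.43 ± 0.37 and did not pass (adjusted p = 0.477). Without control replicate 6 the falls at 1 and 4 Hz were −1.10 (adjusted p = 0.00754) and −1.54 (adjusted p = 0.000433), and with the small RNA share as a covariate they were −0.30 (adjusted p = 0.899) and −0.71 (adjusted p = 0.495).

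**Figure D1:**
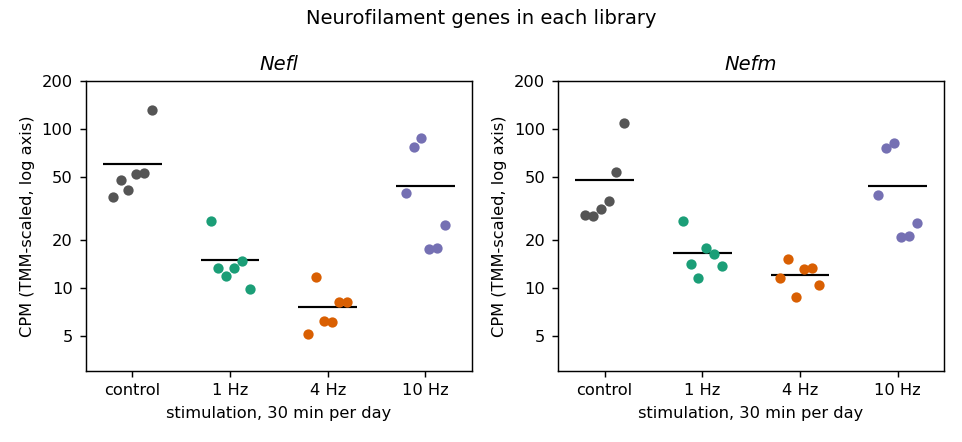
Nefl and Nefm in each library, in CPM on a log axis, by stimulation frequency; each point is 1 library and the line is the group mean. The 1 and 4 Hz libraries sit below every control for both genes, and the 10 Hz libraries spread from 17.6 to 87.2 CPM for Nefl.

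The plot of neurofilament levels by library shows that both genes were high in the same libraries. Control replicate 6 had 131 CPM of Nefl and 110 CPM of Nefm, 1 Hz replicate 1 had 26.3 and 26.2, and 10 Hz replicates 2 and 3 had 77.2 and 76.2, and 87.2 and 81.4. Control replicate 6 (168 CPM), 1 Hz replicate 1 (70.0 CPM), and 10 Hz replicate 2 (270.5 CPM) also had the most small RNA of their groups. At 4 Hz it was otherwise: replicate 3, with the most small RNA (50.8 CPM), had the lowest Nefm (8.75 CPM), and replicate 2, the highest for both genes, had 29.7 CPM of small RNA. The 10 Hz group was split. Its replicates 1 to 3 had 39.3 to 87.2 CPM of Nefl, 38.2 to 81.4 of Nefm, and 109 to 270.5 of small RNA. Its replicates 4 to 6 had 17.6 to 24.7, 21.0 to 25.5, and 38.3 to 79.9 CPM, and the cause was not tested. The balance of the chains differed between groups. Per length, the log2 ratio of Nefl to Nefm TPM was 0.37 ± 0.26 (SD, n = 6) in control, −0.20 ± 0.22 at 1 Hz, −0.72 ± 0.36 at 4 Hz, and −0.084 ± 0.15 at 10 Hz, a description that was not tested because it rests on Nefl. The highest 4 Hz ratio, −0.35, was below the lowest control ratio, −0.037, and such separations were not counted over other pairs of genes. The other neuronal filament genes were near 0: the heavy chain Nefh had at most 3 estimated counts in any library, alpha-internexin (Ina) at most 3, and peripherin (Prph) at most 19.

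Of the 9 members other than Nefl, 8 passed the filter on low counts and were tested. At 1 Hz against control 5 rose and 1 fell, where 35.4% of all 13318 genes tested were called (18.1% rose and 17.3% fell). Scaling by the library total moved that split over all genes from 2414 up and 2306 down to 1785 up and 3108 down. At 4 Hz 1 member rose and 1 fell against a background of 39.4% (19.2% rose and 20.2% fell), and at 10 Hz none of the 8 was called against 4.89%. The lowest unadjusted p of a member at 10 Hz was 0.0971 (Lmnb1), and DESeq2 and limma on log2 TPM also called none. The median log2 fold change of the 8 was 0.27, 0.18, and 6.4e-05 at 1, 4, and 10 Hz, and that of all genes −0.0072, −0.014, and −0.0064. With the study's added limit of 0.5 on the absolute log2 fold change, 2 members at 1 Hz (18.3% of genes), 1 at 4 Hz (20.1%), and 0 at 10 Hz (1.86%) were left. The 3 comparisons share their control libraries.

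**Figure D2:**
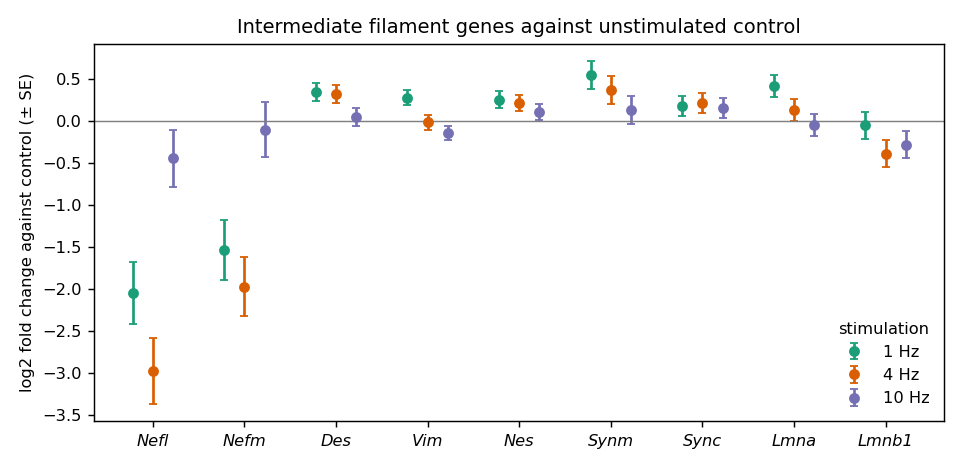
Log2 fold change of each member against control, with the SE of the edgeR fit as bars, at 1, 4, and 10 Hz. Nefl and Nefm lie far below 0 at 1 and 4 Hz, and the other members lie between −0.38 and 0.55 at every frequency.

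Desmin (Des), the main filament of mature muscle, had 1412 to 2063 CPM in control (median 1527), 1699 to 2339 at 1 Hz (2070), 1685 to 2485 at 4 Hz (1916), and 1406 to 1904 at 10 Hz (1639). The 1 and 4 Hz libraries overlapped the controls through control replicate 4, the highest, while the other 5 controls were below all of them. Des rose at 1 Hz by 0.35 ± 0.11 on the log2 scale (adjusted p = 0.0118) and at 4 Hz by 0.32 ± 0.11 (adjusted p = 0.0179), or 1.28 and 1.25 times. At 10 Hz it differed from control by 0.046 ± 0.11 (adjusted p = 0.861). Des was lower at 10 Hz than at 1 Hz (−0.31 ± 0.11, adjusted p = 0.0260), and the difference from 4 Hz of −0.28 ± 0.11 missed the threshold (adjusted p = 0.0604). The 4 Hz call was lost on the TPM scale (0.10, adjusted p = 0.457), when scaled by the library total (0.22, adjusted p = 0.0921), and without 4 Hz replicate 6 (adjusted p = 0.0526), whose 2485 CPM was the highest of that group.

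Vimentin (Vim), the filament of myoblasts and other mesenchymal cells, was the most abundant member per length, at 55.1% to 59.3% of the members' summed TPM by group mean, followed by Des at 22.3% to 26.2%. Vim had 1924 to 2703 CPM in control (median 2308), 2544 to 3299 at 1 Hz (2826), 2006 to 2700 at 4 Hz (2242), and 1965 to 2247 at 10 Hz (2147). It rose at 1 Hz (0.28 ± 0.087, adjusted p = 0.0138) and stood at −0.014 ± 0.087 at 4 Hz and −0.14 ± 0.087 at 10 Hz (adjusted p = 0.915 and 0.399). Vim was lower at 4 Hz than at 1 Hz (−0.29 ± 0.087, adjusted p = 0.0276), a call that 7 of 12 leave-one-out fits and the fit with no filter on low counts (adjusted p = 0.116) did not keep. It was also lower at 10 Hz than at 1 Hz (−0.42 ± 0.087, adjusted p = 0.000574). All 10 Hz libraries lay below all 1 Hz libraries, as in 7.54% of genes, in a comparison with 36.3% of genes called. The 1 Hz call was lost on the TPM scale (0.22, adjusted p = 0.102) and with scaling by the library total (0.20, adjusted p = 0.0588). The log2 ratio of Des to Vim TPM was −1.41 ± 0.15 (SD, n = 6) in control, −1.34 ± 0.13 at 1 Hz, −1.07 ± 0.057 at 4 Hz, and −1.19 ± 0.18 at 10 Hz. Every 4 Hz library, at −1.15 or above, had a higher ratio than every control, of which the highest was −1.22. The ratio was not tested, and such separations were not counted over other pairs of genes.

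**Figure D3:**
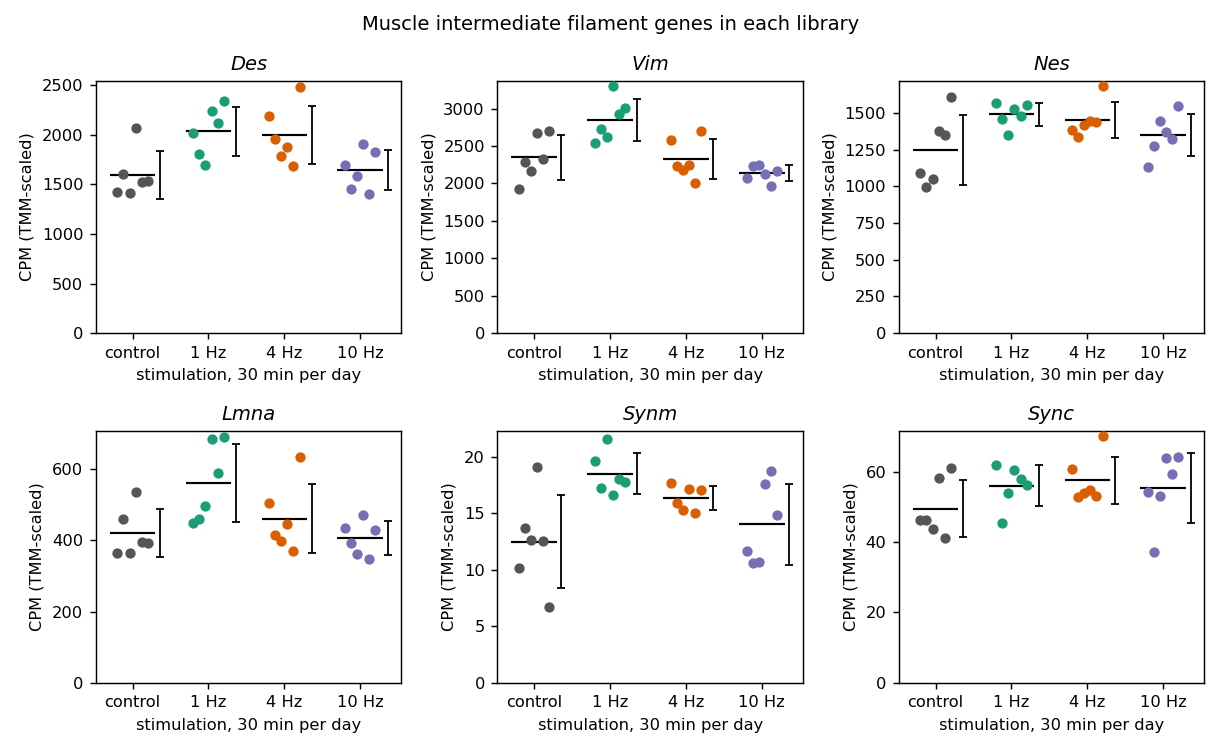
CPM of Des, Vim, Nes, Lmna, Synm, and Sync in each library by stimulation frequency; points are libraries, lines are means, and bars to the right of each group are the SD of 6 libraries. Des was raised at 1 and 4 Hz and Vim at 1 Hz, and the 10 Hz libraries of both overlap the controls.

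Nestin (Nes), a filament of muscle precursors that stays at the neuromuscular junction, had 994 to 1612 CPM in control (median 1221), 1353 to 1570 at 1 Hz (1504), 1339 to 1685 at 4 Hz (1431), and 1131 to 1550 at 10 Hz (1345). The groups overlapped. Nes rose at 1 Hz (0.26 ± 0.098, adjusted p = 0.0410), which 8 of the 12 leave-one-out fits and 8 of the 11 other fits below did not keep. At 4 Hz its difference was 0.22 ± 0.098 (adjusted p = 0.0750), and at 10 Hz 0.11 ± 0.098 (adjusted p = 0.550).

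Synemin (Synm), which links desmin to the membrane, had 6.68 to 19.1 CPM in control (median 12.6), 16.6 to 21.6 at 1 Hz (17.9), 15.0 to 17.7 at 4 Hz (16.5), and 10.6 to 18.7 at 10 Hz (13.2). The 1 and 4 Hz libraries were above all controls except replicate 4. Synm rose at 1 Hz by 0.55 ± 0.17 (adjusted p = 0.0126), the largest increase among the members tested, and its 0.37 ± 0.17 at 4 Hz missed the threshold (adjusted p = 0.0811). It was lower at 10 Hz than at 1 Hz (−0.42 ± 0.16, adjusted p = 0.0474), a call that 10 of the 12 leave-one-out fits did not keep. DESeq2 (adjusted p = 0.0525) and scaling by its size factors (adjusted p = 0.0510) lost it too. So did scaling by the library total (adjusted p = 0.0795), a filter at a mean of 5 CPM (adjusted p = 0.0680), the TPM scale (adjusted p = 0.0832), and the small RNA covariate (adjusted p = 0.888). Syncoilin (Sync), a partner of desmin at the membrane and the neuromuscular junction, had 37.2 to 70.0 CPM over all libraries. Its differences from control were 0.18 ± 0.12, 0.22 ± 0.12, and 0.16 ± 0.12 at 1, 4, and 10 Hz and none passed (adjusted p = 0.244, 0.139, and 0.468).

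The keratin Krt18, which pairs with Krt8 in simple epithelia, was barely detected and did not pass the filter. It had 2 estimated counts summed over the 6 controls, 18 at 1 Hz, 9 at 4 Hz, and 19 at 10 Hz, and at most 8 in any library. Krt8 had at most 15.

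The lamins differed by more than an order of magnitude in level. Lmna, which encodes the lamins A and C of differentiated cells, had 364 to 537 CPM in control (median 395), 448 to 691 at 1 Hz (543), 371 to 635 at 4 Hz (430), and 348 to 472 at 10 Hz (411). Its groups overlapped. Lmna rose at 1 Hz (0.42 ± 0.13, adjusted p = 0.0142) and was lower at 10 Hz than at 1 Hz (−0.47 ± 0.13, adjusted p = 0.00680). Against control it differed by 0.14 ± 0.13 at 4 Hz (adjusted p = 0.424) and −0.046 ± 0.13 at 10 Hz (adjusted p = 0.892). The 1 Hz call was lost on the TPM scale (0.28, adjusted p = 0.0889). Lmnb1, a B-type lamin of the nuclear rim on chromosome 18, had 8.53 to 12.3 CPM in control (median 10.2), 6.15 to 13.1 at 1 Hz (9.53), 6.30 to 8.65 at 4 Hz (8.01), and 5.41 to 10.2 at 10 Hz (8.58). Its −0.38 ± 0.16 at 4 Hz did not pass (adjusted p = 0.0608), but did on the TPM scale (−0.49, adjusted p = 0.0106) and when scaled by the library total (−0.48, adjusted p = 0.0181). The log2 ratio of Lmna to Lmnb1 TPM was 5.75 ± 0.43 (SD, n = 6) in control and 6.27 ± 0.27, 6.24 ± 0.46, and 5.97 ± 0.29 at 1, 4, and 10 Hz, with overlap between all groups.

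Between the stimulated groups, 1 member was called for 4 against 1 Hz (Vim, which fell, with 12.3% of genes called and 6.56% down). For 10 against 1 Hz 5 were called, Nefm upward and Des, Vim, Synm, and Lmna downward (36.3% of genes, 17.7% up and 18.5% down), and for 10 against 4 Hz 1, Nefm upward (22.8%, 10.9% up). With the size limit these counts were 0, 1, and 1, where 3.00%, 17.9%, and 11.0% of genes were called. The small RNA share differed between 10 Hz and the lower frequencies and hardly between 4 and 1 Hz (group means of 27.4 and 29.6 CPM). With it as a covariate the calls at 10 Hz were lost, and the Vim call for 4 against 1 Hz was kept.

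Members were also compared across libraries within groups, after each group's mean log2 CPM had been subtracted. Of 36 pairs of 9 members, 7 passed at a Benjamini-Hochberg adjusted p below 0.05 of Pearson's r (permutation test, 2-sided, 100000 shuffles within groups, n = 24), 5 with r above 0. This step removes the group means on which Nefl was selected. Nefl and Nefm, whose reads in the 1152 shared bases may not be separable, gave r = 0.93 and Spearman's rho = 0.84 (permutation p = 1e-05 for r, the smallest the shuffles can give, adjusted p = 0.00018; p = 6e-05 for rho, adjusted p = 0.00108), and r = 0.88 without control replicate 6 and 10 Hz replicate 3, the farthest on the Nefl axis. Des and Lmna gave r = 0.89 and rho = 0.81 (permutation p = 1e-05 and 3e-05, adjusted p = 0.00018 and 0.00108), and r = 0.84 without control replicate 4 and 4 Hz replicate 6. Des and Lmna lie on different chromosomes, and Vim went with both, at r = 0.70 with Des and 0.75 with Lmna (rho = 0.68 and 0.78, permutation p = 0.00048 and 0.00016 for r, adjusted p = 0.00432 and 0.00192; p = 0.0007 and 0.00012 for rho, adjusted p = 0.00526 and 0.00144). Without the 2 farthest libraries these were 0.59 and 0.71. Des and Sync gave r = 0.63 and rho = 0.67 (permutation p = 0.00116 and 0.00073, adjusted p = 0.00835 and 0.00526), and r = 0.53 without those of Des. Synm went the other way to both neurofilaments. Its r was −0.65 with Nefl and −0.70 with Nefm (rho = −0.55 and −0.62; permutation p = 0.0077 and 0.00568 for r, adjusted p = 0.0396 and 0.0341). For rho the permutation p was 0.0273 and 0.0129, and neither passed after adjustment (adjusted p = 0.0757 and 0.0517). Both relations weakened to r = −0.46 and −0.51 without control replicate 6 and 10 Hz replicate 3, and control replicate 6 had both the highest Nefl and the lowest Synm (6.68 CPM) of its group. At 10 Hz, replicates 1 to 3, with more Nefl and Nefm, had 10.6 to 11.7 CPM of Synm, and replicates 4 to 6 had 14.8 to 18.7. The points share library depth and scaling, and the small RNA share varied within groups as well.

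**Figure D4:**
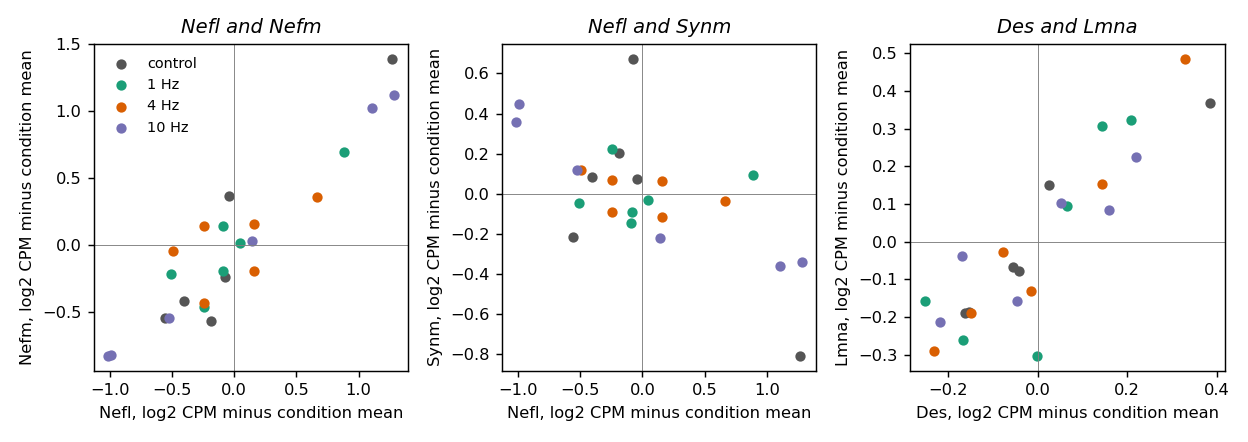
Log2 CPM of 3 pairs of members in each of 24 libraries after subtraction of the group mean, colored by group. Nefl and Nefm (r = 0.93) and Des and Lmna (r = 0.89) lie along rising lines, and Synm falls with Nefl (r = −0.65), with control replicate 6 at the lower right.

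Among all 13317 other genes, Nefm had the log2 CPM pattern most like Nefl over the 24 libraries (r = 0.96, a value that includes the differences between groups), followed among named genes by Add2 (r = 0.95, beta-adducin of the membrane skeleton), Kansl2 (0.94), Ube2l6 (0.94), Ptger4 (0.94, a prostaglandin E2 receptor), and Washc2 (0.93). After group means were subtracted, Thbs2, a matricellular thrombospondin, came first (r = 0.94) and Nefm second (0.93), then Ptger4 (0.85), Ptgs1 (0.84, cyclooxygenase 1), Chn2 (0.84), and Hsph1 (0.83, a heat shock protein). These are descriptions over 24 libraries that share scaling and depth. Of the members, Synm ranked 13170 of 13317 in the second comparison, near the opposite end.

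Other intermediate filament genes were counted from a list of 23, of which 8 passed the filter; 15 did not and had at most 19 estimated counts in a library. At 1 Hz 1 rose and 3 fell, and at 4 Hz 2 rose and 4 fell, where 35.4% and 39.4% of all genes were called, with a median log2 fold change over the 8 of −0.25 and −0.24. Krt80, a keratin of differentiating epithelia, rose from 68.7 ± 9.0 CPM (SD, n = 6) in control to 107 ± 18 at 1 Hz (log2 fold change 0.65, adjusted p = 0.000180) and 103 ± 16 at 4 Hz (0.58, adjusted p = 0.000350). Krt19, a small keratin also found at costameres, fell from 93.5 ± 17 CPM to 61.0 ± 11 at 1 Hz (−0.62, adjusted p = 0.00710) and 38.8 ± 9.4 at 4 Hz (−1.27, adjusted p = 5.44e-06). The low keratins Krt13 and Krt14 fell as well, Krt13 from 10.6 ± 1.7 CPM to 3.50 ± 0.81 and 3.05 ± 0.76 and Krt14 from 3.53 ± 0.81 to 1.73 ± 0.77 and 0.88 ± 0.82. Iffo1 rose at 4 Hz (0.36, adjusted p = 0.0274) and at 10 Hz (0.51, adjusted p = 0.0197), where it was the 1 gene of the list to pass, and Iffo2 fell at 4 Hz (−0.30, adjusted p = 0.00675).

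Of 15 genes for filament linkers and turnover, 14 were tested; 4 rose and 3 fell at 1 Hz, 4 rose and 4 fell at 4 Hz, and none passed at 10 Hz, beside 35.4%, 39.4%, and 4.89% of all genes called, with medians of 0.14, 0.042, and −0.093. Plec, whose product plectin ties desmin to Z-disks and the membrane, rose from 598 ± 65 CPM to 796 ± 170 at 1 Hz (0.41, adjusted p = 0.0133) and 745 ± 147 at 4 Hz (0.32, adjusted p = 0.0485). Dtna, a dystrobrevin that binds synemin and syncoilin, rose at 1 Hz (0.40, adjusted p = 0.00169) and 4 Hz (0.38, adjusted p = 0.00203). Cryab, the small heat shock chaperone of desmin, fell at 1 Hz from 932 ± 96 to 738 ± 56 CPM (−0.34, adjusted p = 0.00989). At 4 Hz Macf1 (−0.34, adjusted p = 0.0109) and Vcl (−0.22, adjusted p = 0.0379), a spectraplakin and vinculin, fell.

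All 16 lamin partners were tested; 5 rose and 2 fell at 1 Hz, 5 rose and 3 fell at 4 Hz, and 1 fell at 10 Hz, beside the same shares of all genes, with medians of 0.023, −0.032, and −0.060. Sun2 and Sun1, which bridge the lamina to the cytoskeleton across the nuclear envelope, rose at 1 Hz by 0.57 (adjusted p = 0.000616) and 0.45 (adjusted p = 4.08e-05) and at 4 Hz by 0.37 (adjusted p = 0.0158) and 0.26 (adjusted p = 0.00555). Banf1, a chromatin binder of the nuclear envelope, rose from 110 ± 11 CPM to 156 ± 18 and 177 ± 17 (0.50 and 0.69, adjusted p = 6.33e-05 and 8.95e-07). Fnta, a subunit of the farnesyltransferase that modifies prelamin A, fell at 1 Hz (−0.29, adjusted p = 0.00579). Fntb, the other subunit of that enzyme, went the other way, at 1 Hz (0.65, adjusted p = 0.000306) and 4 Hz (0.44, adjusted p = 0.00659). Icmt, which methylates the farnesylated end, fell at 1 Hz (−0.21, adjusted p = 0.0225), at 4 Hz (−0.57, adjusted p = 1.66e-06), and at 10 Hz (−0.28, adjusted p = 0.0212).

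**Figure D5:**
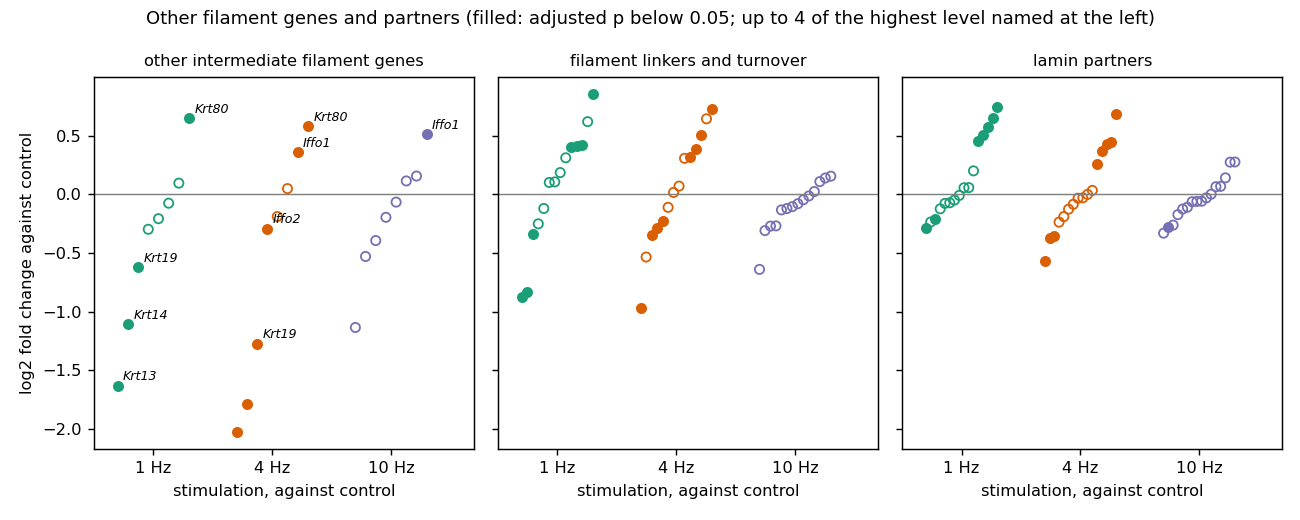
Log2 fold change against control of the tested genes of 3 lists at 1, 4, and 10 Hz, sorted within each frequency; filled points passed at an adjusted p below 0.05. At 10 Hz, 1 gene of the other filament genes and 1 lamin partner passed.

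Because neurofilaments are neuronal proteins, 9 neuron markers were read beside Nefl and Nefm. They summed to 116 to 181 CPM in control, 126 to 156 at 1 Hz, 103 to 112 at 4 Hz, and 103 to 143 at 10 Hz. The most abundant of them were Stmn2, at 46.0 to 56.8 CPM by group mean, Tubb3, at 27.4 to 38.1 CPM, and Syn1, at 16.5 to 28.1 CPM. Map2 had 10.5 to 13.4 CPM and Gap43 4.04 to 7.49 CPM by group mean. Snap25, Rbfox3, and Elavl4 had at most 1 estimated count in any library, and Syt1 at most 5. Of the 5 that passed the filter none was called at 1 or 10 Hz, and Syn1 (−0.77, adjusted p = 3.06e-06) and Gap43 (−0.88, adjusted p = 0.00102) fell at 4 Hz. Over all genes tested 35.4%, 39.4%, and 4.89% were called at 1, 4, and 10 Hz, shares that belong beside each count of markers in this paragraph. Of 10 muscle fiber markers 8 rose and none fell at 1 and at 4 Hz, and 4 rose at 10 Hz, with median log2 fold changes of 0.65, 0.84, and 0.29 beside the 0.35, 0.32, and 0.046 of Des. Of 10 markers of cycling cells 3 fell at 1 Hz and 3 fell and 2 rose at 4 Hz, with summed levels of 358 to 404 CPM in control, 315 to 369 at 1 Hz, and 313 to 385 at 4 Hz. Of 4 fibroblast markers tested, out of 5, 2 rose at 1 Hz and 1 fell at 4 Hz, with sums of 272 to 589 CPM in control, 419 to 636 at 1 Hz, 310 to 552 at 4 Hz, and 281 to 383 at 10 Hz. Glia markers summed to at most 6.62 CPM and adipocyte markers to at most 0.92 CPM in any library. The part of these cells in the levels of the members was not tested.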

How the data were processed

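RNA-seq of 24 C2C12 tissues, 6 per condition, was read from 2 deposited tables. Per the study's methods, poly(A) RNA was made into directional libraries, sequenced on a Singular G4 instrument, and run through nf-core/rnaseq with GRCm39 and Ensembl genes (no source used here names the release). The submitters' processing notes name STAR, Salmon, BWA 0.7.12-r1039, and bedtools 2.25.0. The authors deposited Salmon estimated counts per gene, not normalized, and TPM, which they scaled to the same sum for every library. Groups and replicate numbers came from the sample titles. Of the estimated counts above 0, 22.4% to 28.8% per library were not whole and were rounded.

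Genes were kept with filterByExpr by condition in edgeR 4.0.16 (R 4.3.3), which left 13318 genes and 99.8% of counts. Scaling by TMM and quasi-likelihood testing (glmQLFit, glmQLFTest) were run in 1 fit of all 24 libraries on condition, with 6 contrasts and Benjamini-Hochberg adjustment over all genes tested. Calls needed an adjusted p below 0.05. The study's added limit of 0.5 on the absolute log2 fold change, DESeq2 1.42.0 and limma 3.58.1 on log2(TPM + 1), and other scalings, filters, and covariates were alternatives. CPM of single genes use TMM-scaled totals, and CPM of summed marker and small RNA lists use unscaled library totals. SDs are between libraries, and SEs were derived from the fold change and F statistic of the fit. No 2 of the 60 within-group pairs of libraries agreed within sampling noise. The test was checked on simulated counts with a common dispersion of 0.023 for every gene. That check does not cover genes of wider spread, such as Nefl and Nefm. Totals of 4.09 to 15.2 M per library limit what can be seen of genes near 0.

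The members and lists were chosen with earlier results of these data known. All 10 members are named, up to 4 genes of a list with the highest mean CPM among those passing in the contrast described, and the 5 genes most like Nefl by Pearson's r of log2 CPM (prior count 2), with predicted genes passed over. Prph, Nefh, Ina, Krt8, Stmn2, Tubb3, Map2, and the untested neuron markers are named for their levels, chosen after their values were seen. Fntb, and Icmt at 1 Hz, were likewise added beside genes already named. Motifs were searched on both strands of RefSeq promoter windows. The channelrhodopsin transgene was not analysed here, and 1 gene of the linker list is counted but not reported by name.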

Additional observations from a re-analysis of the deposited data

Results flagged for a closer look

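Of 40 groups of 6 libraries (10 members in 4 conditions), 5 held a library farther from the others than Dixon's 95% limit allows; chance alone marks about 1 in 20 groups. In control, the highest Nefl library (replicate 6, 131 CPM) and the highest Nefm library (the same replicate, 110 CPM) stood apart. At 1 Hz, replicate 1 stood apart for Nefl at 26.3 CPM. The highest Des control, replicate 4, had 2063 CPM. At 4 Hz, replicate 6 stood apart for Nes at 1685 CPM, and it was also the highest of its group for Des, Vim, Lmna, and Sync.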

How the results depend on the processing

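Nefm kept its fall at 1 and 4 Hz under every alternative for these 2 comparisons other than the small RNA share as a covariate, between log2 fold changes of −1.10 and −1.70, and −1.54 and −2.07. The count of members called moved as follows. With the small RNA share as a covariate it was 0 at 1 Hz (6 as reported), 0 at 4 Hz (2), 0 for 10 against 1 Hz (5), and 0 for 10 against 4 Hz (1), while Vim was at −0.39 for 10 against 1 Hz (−0.42 as reported) and at 0.25 at 1 Hz (0.28), neither of them passing. With the study's size limit it was 2 at 1 Hz, 1 at 4 Hz, 0 for 4 against 1 Hz, and 1 for 10 against 1 Hz. With limma it was 3 at 1 Hz and 2 for 4 against 1 Hz, with either pseudocount (1 or 0.1 TPM). Without a filter limma gave 2 at 1 Hz, Nefm and Krt18, the latter nearly undetected and tested only with the filter off. In that fit Des, Vim, Nes, Synm, and Lmna lost their calls at 1 Hz. Without a filter on low counts it was 0 for 4 against 1 Hz, with scaling by library total 3 for 10 against 1 Hz, and with DESeq2 2 for 10 against 4 Hz. Leaving out 1 library at a time gave 5 to 6 members at 1 Hz, 1 to 3 at 4 Hz, 0 to 0 at 10 Hz, 0 to 2 for 4 against 1 Hz, 3 to 5 for 10 against 1 Hz, and 1 to 2 for 10 against 4 Hz. Des for 10 against 1 Hz was lost in 4 of its 12 fits. The criterion that replicate numbers pair libraries, every same-numbered pair above 0.1, was not met: same-numbered libraries of different groups correlated at −0.18 to 0.36 (median 0.017), 10 of 36 above 0.1, though 10 of 24 libraries correlated best with their own number. With the replicate block 6, 3, 0, 1, 5, and 2 members were called, and Nes at 4 Hz (adjusted p = 0.0228) and Des for 10 against 4 Hz (adjusted p = 0.0221) were added. The covariate also moved Nefl for 10 against 1 Hz to 0.30 and for 10 against 4 Hz to 1.23. The median of all genes at 4 Hz moved by −0.11 with scaling by library total. The causes were not tested.

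In 47 cases, 20 of them with 1 library left out, the sign of a fold change turned, and none of these passed the test either way. Under the covariate these were Sync −0.053 and Lmnb1 0.22 at 1 Hz; Synm −0.021, Sync −0.011, and Lmna −0.089 at 4 Hz; Nefm 0.023 at 10 Hz; Sync 0.17 for 10 against 1 Hz; and Synm 0.088, Sync 0.13, Lmna 0.012, and Lmnb1 −0.12 for 10 against 4 Hz. With limma on log2(TPM + 1), with or without the filter, and with 0.1 they were Lmna −0.10 (−0.10) at 4 Hz, Des −0.067 (−0.067) at 10 Hz, Sync −0.086 (−0.088) for 4 against 1 Hz, and Sync 0.014 (0.014) for 10 against 4 Hz. Scaling by library total gave Sync 0.026 for 10 against 1 Hz and 0.0080 for 10 against 4 Hz, the filter at a mean of 5 CPM Sync 0.017 for 10 against 1 Hz, and no filter Vim 0.025 at 4 Hz. With 1 library left out the ranges were −0.14 to 0.040 for Lmnb1 at 1 Hz, −0.055 to 0.032 for Vim at 4 Hz, −0.38 to 0.33 for Nefm, −3.3e-05 to 0.13 for Des, and −0.094 to 0.037 for Lmna at 10 Hz, −0.095 to 0.015 for Des and −0.018 to 0.068 for Sync at 4 against 1 Hz, and −0.068 to 0.071 and −0.11 to 0.032 for Sync at 10 against 1 and 4 Hz.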
